A study of Mus musculus with 39 samples.

Results

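The comparison described here is p53-null against wild type (WT) 5-methylcytosine (5mC) in naive mouse embryonic stem cells (mESC), over all 200 bp genomic tiles with a 5mC value in both genotypes. These were 246422 of the 377684 tiles in the authors' table. The cells came from morulas at embryonic day 2.5 of 129s-Trp53tm2Tyj/J p53+/- matings, attached to irradiated feeder fibroblasts and kept in 2i medium, and the naive oxRRBS groups hold 5 WT and 3 p53-/- libraries. The sources used here do not give the number of lines per genotype, their sex, or whether feeders were removed from the naive cultures. A second set of columns in the same table, used below to class tiles and for comparison, was taken as cells kept with 1 uM retinoic acid (RA) for 4 days, the only other state with oxRRBS libraries (4 WT and 4 p53-/-).

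5mC is the methyl mark that DNA methyltransferases place on cytosine, in mammals mostly at CpG pairs, and TET enzymes oxidise it to 5-hydroxymethylcytosine (5hmC). Naive mESC in 2i are known for low genome-wide methylation, and CpG islands are kept free of it in most cell types. p53 regulates transcription in the response to DNA damage, and in mESC it is known to promote differentiation after such damage. Bisulfite sequencing of MspI fragments (RRBS) reads 5mC and 5hmC together, called total methylation here. The oxidative form (oxRRBS) first oxidises 5hmC so that 5mC alone is read.

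The authors deposited 1 pooled value per genotype and tile. Read depth is unknown and no spread between libraries can be given, so no difference below was tested, and whether any exceeds the spread between cultures or lines is not known. The spread over chromosomes or tiles is printed as a description of the genome only. The tile headings name the genotype and the modification but no cell state, and the first of 2 sets was taken as naive. In 95601 tiles that also hold CpGs of a table whose headings do name the state, total methylation of the first set in WT correlated across tiles with the naive column at r = 0.953 and with the RA column at r = 0.877. For p53-null cells the values were 0.966 and 0.894. In the second set the order was the other way round, with r = 0.867 for the naive and 0.965 for the RA column in WT.

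Naive p53-null cells carried more 5mC than WT cells over most of the genome that was sampled. The mean tile level was 24.2% in WT and 33.7% without p53, which is 9.51 percentage points more, and the median level was 19.7% and 31.9%. In relative terms the p53-null mean was 1.39 times the WT mean. The p53-null value was the higher in 166042 tiles (67.4%), the lower in 67737 (27.5%) and equal in 12643, of which 12406 were listed at 0 in both. Tile differences were wide, with an SD over tiles of 18.3 points and a median of 5.12 points.

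The whole distribution of levels differed, not only its upper end. Of all tiles, 37.7% lay at 0 to 10% in WT and 31.5% without p53. From 10% to 40% each 10-point step held more WT tiles, and from 40% upward each step held more p53-null tiles. Between 50% and 60% lay 7.17% of tiles in WT and 10.4% without p53. Tiles at 80% or more were 1.56% in WT and 6.38% without p53, and tiles listed at exactly 100% numbered 428 and 1329. The share listed at 0 was close in both, 11.2% and 10.3%.

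**Figure D1:**
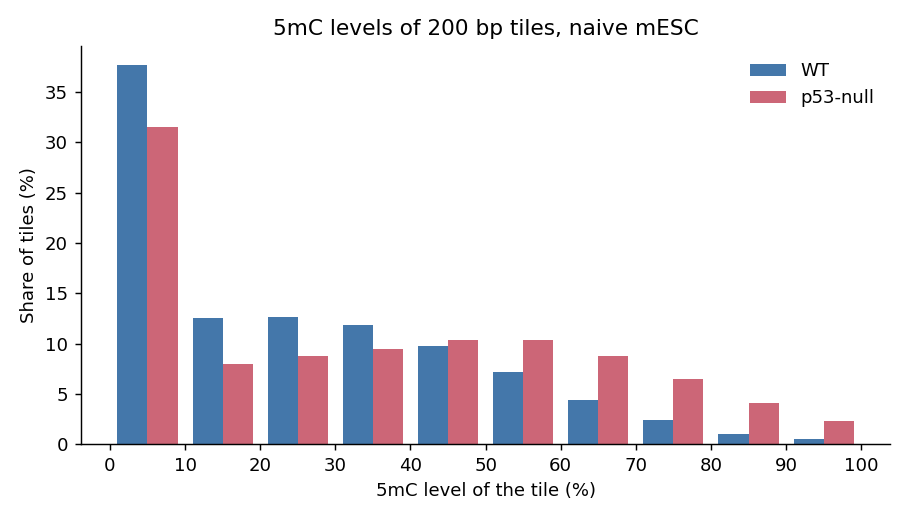
Share of the 246422 tiles (%) in each 10-point step of 5mC level (%), for the pooled WT and p53-null columns of naive mESC. WT has the larger share in each step below 40% and p53-null cells the larger share in each step from 40% upward.

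By a size rule of 25 points, 5mC in p53-null cells exceeded WT in 44380 tiles (18.0%) and was below WT in 5831 (2.37%). With 10 points as the rule, 101209 tiles (41.1%) were higher and 19978 (8.11%) lower, and with 50 points 7184 (2.92%) and 714 (0.290%). In total methylation of the same tiles, read from RRBS, 22307 (9.05%) were above and 780 (0.317%) below WT by at least 25 points. In 5mC, higher tiles thus outnumbered lower ones 5.07-fold at 10 points, 7.61-fold at 25 points and 10.1-fold at 50 points. In total methylation the ratios were 14.2, 28.6 and 38.6. These are counts past a size and not calls of a test.

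Tiles were next classed by their mean 5mC of both genotypes in the second set, whose columns do not enter the naive comparison. Over the 214665 tiles present in both sets, the naive difference was close to 0 where the second set was unmethylated and about 13 to 14 points wherever it was above 40%. Tiles under 5% in the second set, 41785 of them, averaged 0.550% in naive WT and 0.664% in naive p53-null cells. At 5% to 20% the naive means were 4.66% and 7.01%, a difference of 2.35 points over 18831 tiles. At 20% to 40% they were 15.9% and 25.1%, 9.30 points apart over 36462 tiles, with chromosome means between 8.31 and 13.4 points.

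The most numerous class, 66580 tiles at 40% to 60%, averaged 30.9% in WT and 44.5% without p53, 13.6 ± 0.500 points (SD over 20 chromosomes). Here 24.6% of tiles were higher by at least 25 points and 2.30% lower, beside 18.0% and 2.37% of all tiles. Tiles at 60% to 80% gave 44.7% and 58.6%, a difference of 13.8 ± 0.510 points. The 4067 tiles at 80% or more gave 57.2% and 70.2%, a difference of 12.9 ± 1.74 points. As a ratio, the p53-null level was 1.59 times WT at 20% to 40% and 1.23 times at 80% or more, so the ratio and the difference did not peak in the same class.

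Naive p53-null 5mC stood between naive WT 5mC and the second-set WT level in the mean. Over the tiles in both sets, 5mC was 23.7% in naive WT, 32.9% in naive p53-null, 40.7% in second-set WT and 36.7% in second-set p53-null cells. p53-null minus WT was 9.28 points in the first set, against -3.95 points for the second. At 40% to 60% the 4 values in the same order were 30.9%, 44.5%, 53.5% and 47.7%, so that naive and second-set p53-null cells lay 3.20 points apart where the WT columns lay 22.6 apart. This p53-null gap was larger in the other classes from 20% upward: 4.32 points at 20% to 40%, 6.15 at 60% to 80% and 11.4 at 80% or more. The WT gaps there were 17.0, 26.2 and 29.7 points. Since the second set defines the classes, gaps between the sets within a class depend in part on the classing.

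**Figure D2:**
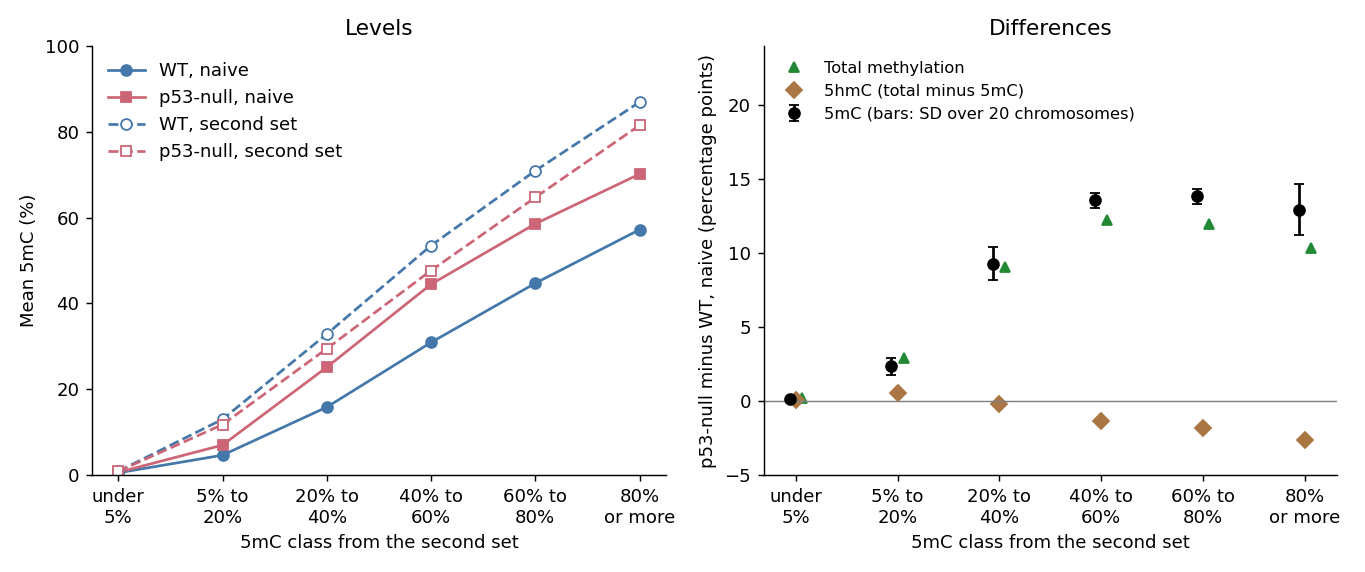
Left, mean 5mC (%) of naive WT and p53-null cells and of the second set, by 5mC class of the second set; right, p53-null minus WT in naive cells (percentage points) for 5mC, with bars for the SD over 20 chromosomes, total methylation and 5hmC. The naive 5mC difference is 0.115 points under 5% and 13.6 points at 40% to 60%, while that of 5hmC goes from 0.0969 to -2.59 points.

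The difference was next set beside the total methylation of the same tiles, read from the RRBS libraries. The mean total was 30.1% in WT and 38.8% without p53, 8.65 points apart and thus closer than for 5mC. 5hmC, the total minus 5mC, was 5.96% and 5.10%. It is a subtraction between separate libraries of unknown depth and can be negative. In windows of 10 kb with at least 5 tiles, 5mC exceeded the total in 16.9% for WT and 20.7% for p53-null cells. The lower p53-null mean of 5hmC lay mainly in the 143550 tiles with no CpG of the authors' single-CpG table, at 5.49% and 3.81%. Tiles with 1 such CpG had 9.50% and 9.68%, and those with 2 to 4 had 5.30% and 5.86%. In these the total difference, 8.76 and 4.09 points, exceeded that of 5mC, 8.58 and 3.53 points. Over all tiles the share of the total that was 5mC was 80.2% in WT and 86.8% without p53. By class, its share was 79.2% and 86.8% at 40% to 60%, and 86.3% and 91.6% at 80% or more. The order was the other way only under 5%, at 78.4% and 72.8%, where both levels were below 1%.

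Tiles dense in listed CpGs were nearly unmethylated in both genotypes. A tile was called dense when it held 9 or more CpGs of the authors' single-CpG table. Tiles with none of these CpGs have a 5mC value too, so the count is not the number of CpGs in the sequence. In 6453 such tiles mean 5mC was 0.299% in WT and 0.315% without p53, a difference of 0.0161 points. Tiles with 5 to 8 of these CpGs differed by 0.226 points and those with 2 to 4 by 3.53 points (8.46% and 11.99%). With 1 CpG the means were 20.2% and 28.8%, and in the 143550 tiles with none they were 32.1% and 44.4%, 12.4 points apart. The SD over tiles was larger in the same order, from 0.638 points in dense tiles to 21.2 points in tiles with none.

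5mC and the genotype difference were both larger with distance from the nearest dense tile, with the largest steps between 600 bp and 4000 bp. Directly next to dense tiles, at 200 bp, 5mC was 0.426% in WT and 0.487% without p53. At 800 to 1000 bp it was 3.07% and 4.84%, and at 1200 to 2000 bp 9.88% and 14.7%. At 2200 to 4000 bp the levels were 16.8% and 25.1%, and the difference of 8.27 points was near that of more distant tiles. Beyond 200 kb the 85909 tiles averaged 30.6% and 42.3%, 11.7 points apart. The p53-null to WT ratio was 1.05 in dense tiles and lay between 1.37 and 1.58 in each distance class from 600 bp on, with the largest value, 1.58, at 800 to 1000 bp.

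**Figure D3:**
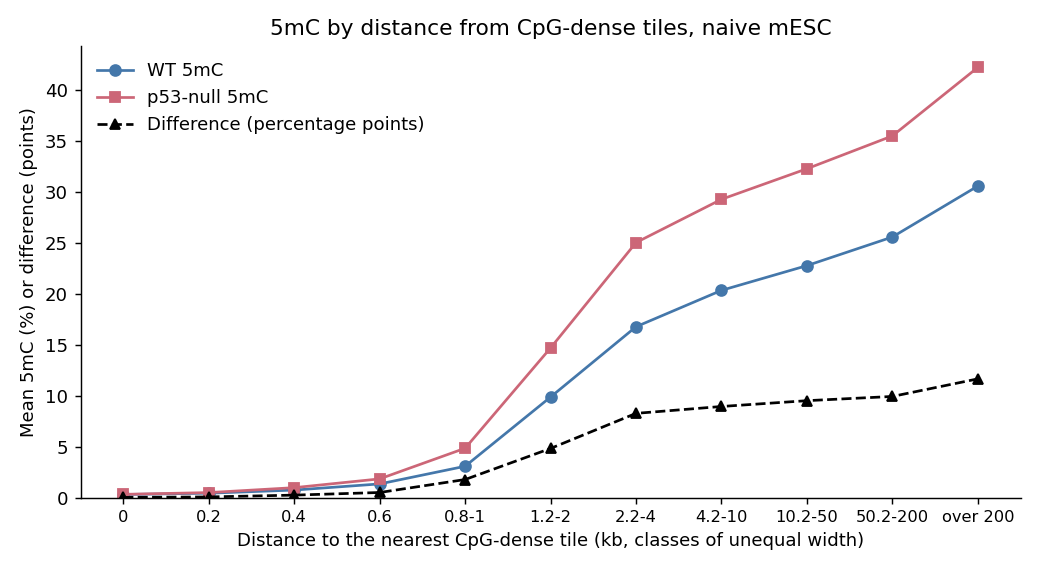
Mean 5mC (%) of naive WT and p53-null cells and their difference (percentage points) against the distance to the nearest CpG-dense tile (kb, classes of unequal width). All 3 lines lie below 2 up to 600 bp, and the difference reaches 8.27 points at 2200 to 4000 bp and 11.7 points beyond 200 kb.

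The difference was present on each chromosome with at least 1000 tiles. p53-null 5mC was the higher on 20 of 20 of them, and the 19 autosomes lay between 8.69 points (chromosome 11) and 10.3 points (chromosome 12). The ratio of the means ranged only from 1.36 to 1.42 over autosomes, which differed in WT level from 21.7% to 26.3%. Chromosome 11, which carries the p53 gene, went from 21.7% in WT to 30.3% without p53. Over the genome the p53-null mean was the higher in 2529 of 2531 windows of 1 Mb, and on chromosome 11 in 119 of 119, by 4.33 to 19.3 points. The lowest of these was the window at 89000001 to 90000000 (mm9), at 26.4% and 30.7%, and the highest that at 73000001 to 74000000, at 38.5% and 57.8%.

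Chromosome X had the largest difference, 11.2 points, from 28.8% in WT to 40.02% without p53. The ratio of its means, 1.39, lay within the autosomal range of 1.36 to 1.42. Without the stretch of X described below, the rest of X differed by 9.90 points, within the autosomal range of 8.69 to 10.3 points. The labels do not give the number of X chromosomes or the state of X inactivation in these lines. Within classes of the second set, X tiles exceeded autosomal ones in WT 5mC as well, for example 22.8% against 15.7% at 20% to 40%. The genotype difference in that class was 13.4 points on X and 9.19 on autosomes. At 60% to 80% it was 13.4 on X and 13.8 on autosomes, and at 80% or more 8.50 on X (59 tiles) and 13.0 on autosomes.

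Along the genome, p53-null 5mC was the higher in 2529 of the 2531 windows of 1 Mb with at least 20 tiles, with a median of 9.80 points and a range from -1.52 to 27.9. The 2 lower windows were both on X, at 139000001 to 140000000 (28.4% and 26.9%) and at 17000001 to 18000000 (40.2% and 38.9%). Their total methylation had the other sign, with p53-null cells 6.88 and 9.70 points above WT. Among the 4 windows of smallest difference, the other two were on chromosome 3 at 39000001 to 40000000 (1.13 points) and on chromosome 6 at 8000001 to 9000000 (1.36 points).

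The 4 windows of largest difference were 3 on X and 1 on chromosome 7. In the window of X at 26000001 to 27000000, 5mC went from 42.4% in WT to 70.3% without p53, with 57 of 60 tiles higher. In the window of X at 27000001 to 28000000 the levels were 47.9% and 73.8%, with 60 of 60 tiles higher. The window of chromosome 7 at 8000001 to 9000000 had 42.2% and 68.0% (20 of 20 tiles higher), and that of X at 24000001 to 25000000 had 39.1% and 64.7% (42 of 47). Total methylation, which did not choose them, was higher by 25.02, 19.2, 23.6 and 23.95 points in these 4 windows, beside a median of 8.87 points over all windows.

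A difference of at least 20 points was seen in 31 windows (1.22%), of which 8 of the 138 windows of X and 7 of the 142 of chromosome 7 were the most on any chromosome. In these 31 the p53-null total exceeded that of WT by 6.69 to 25.02 points, and it did so in 2530 of all 2531 windows. Several of those on X and chromosome 7 lie side by side, in stretches whose limits were chosen after the values were seen. On X, the 11 windows from 22000001 to 33000000 differed by 17.8 to 27.9 points each. Their 578 tiles averaged 42.7% in WT and 65.2% without p53, with 529 tiles (91.5%) higher and 264 (45.7%) higher by at least 25 points. Over the rest of X the levels were 27.2% and 37.1%, a difference of 9.90 points, and 20.8% of tiles were higher by at least 25 points.

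In this stretch of X the genotypes kept the same order in the second set, which did not enter the choice. There p53-null 5mC was 48.4% and WT 44.5%, 3.86 points higher over 499 tiles, while over the rest of X the difference was -4.13 points. Second-set p53-null cells were the higher in 9 of the 11 windows, beside 61 of all 2531 windows (2.41%). Of the tiles in the stretch, 93.8% held no CpG of the single-CpG table, against 71.6% in the rest of X. WT 5mC was nearly the same in the first and second set there, 42.6% and 44.5% over the same tiles, so that naive p53-null cells, at 65.4%, lay above each of the other 3 values. Naive p53-null 5mC exceeded second-set WT 5mC in 340 of all 2531 windows, and in 28 of the 31 that differed by at least 20 points.

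On chromosome 7 the stretch from 7000001 to 11000000 had 33.7% in WT and 54.0% without p53 over 187 tiles, 20.3 points apart, and that from 21000001 to 24000000 had 33.1% and 55.9% over 286 tiles, 22.8 points apart. In the latter, 265 tiles (92.7%) were higher and 0 were lower by at least 25 points. Here the second set did not keep the order. p53-null minus WT was -2.53 points in the former stretch and -2.498 points in the latter, beside -3.42 and -3.43 points in the rest of the chromosome. Second-set WT 5mC was 40.1% in the former stretch and 36.6% in the latter, beside 33.3% and 32.7% in naive WT over the same tiles. Second-set p53-null 5mC was 37.5% and 34.1%. Naive p53-null 5mC over these tiles, 52.7% and 55.0%, was thus the highest here too, as in the stretch of X.

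**Figure D4:**
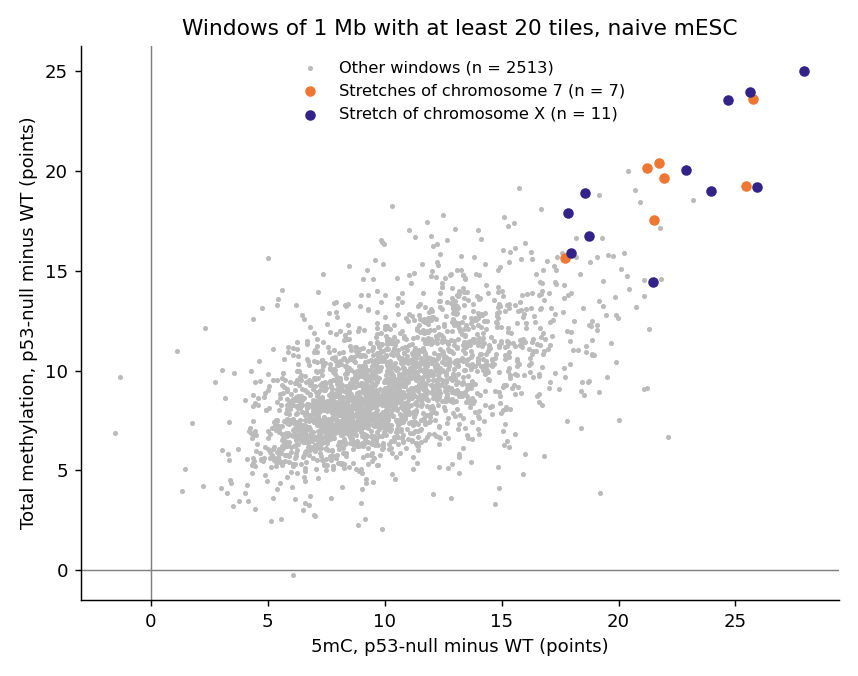
Each point is a window of 1 Mb with at least 20 tiles in naive mESC, placed by its p53-null minus WT difference in 5mC (x axis) and in total methylation (y axis), both in percentage points. The 11 windows of the X stretch and the 7 of the chromosome 7 stretches lie at 17.7 to 27.9 points of 5mC, with total methylation also high, and 2 windows lie below 0 in 5mC.

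The assays were less alike in single tiles than in windows. Across the 2531 windows the 5mC and the total difference correlated at r = 0.596, across 12310 windows of 10 kb with at least 5 tiles at 0.527, and across single tiles at 0.208. In the class at 40% to 60% the tile value was 0.105. These correlations describe points that all come from the same pooled libraries of each assay and are not independent. Neighbouring tiles were also only loosely alike. Directly adjacent tiles correlated at 0.293 in their 5mC difference and at 0.406 in their total difference (108230 pairs). At 2000 bp the values were 0.0654 and 0.105, while the WT 5mC level still correlated at 0.387.

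Tiles with 5mC differences of at least 25 points in either direction had mean total differences of 10.7 to 15.2 points, all with p53-null cells the higher. The 833 tiles higher by 75 points or more in 5mC, from 7.43% to 90.7%, had total methylation of 46.8% in WT and 62.0% without p53, 15.2 points apart. Their mean p53-null 5mC thus exceeded the mean p53-null total, which by definition includes 5mC. Grouping tiles by their 5mC difference favours this. Tiles higher by 25 to 50 points had a total difference of 13.3 points. The 5117 tiles lower by 25 to 50 points in 5mC, from 58.8% to 25.3%, were higher in p53-null cells in total methylation, by 10.7 points, and the 714 tiles lower by at least 50 points were higher by 11.1 points.

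The same held among tiles of similar second-set level. Among tiles at 40% to 60% in the second set, p53-null total methylation exceeded that of WT by 14.2 points in the 16370 tiles with a 5mC increase of at least 25 points. It was higher by 10.9 points in the 21874 tiles within 10 points, and by 11.6 points in the 1534 tiles with a decrease of at least 25 points. Naive WT 5mC in these groups was 25.3%, 31.4% and 58.6% in the same order, so the naive level was not kept alike. Of all tiles higher by at least 25 points in 5mC, 27247 (61.4%) were also higher by at least 10 points in total methylation, beside 40.6% of all tiles. Of those lower by 25 points, 502 (8.61%) were also lower by at least 10 points in the total, beside 2.85% of all tiles. The decreases in single tiles were thus mostly not seen in the other assay. The number of reads behind a tile is unknown in either assay.

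**Figure D5:**
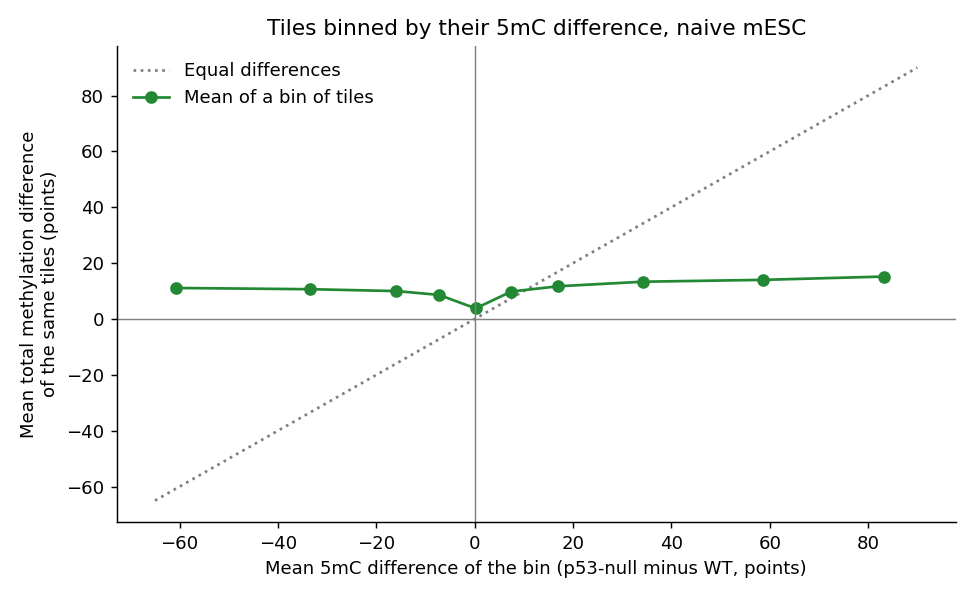
Tiles of naive mESC grouped by their 5mC difference (p53-null minus WT); each point gives a group's mean 5mC difference (x axis) and mean total methylation difference (y axis), in percentage points, and the dotted line marks equal values. Groups from -60.6 to 83.3 points in 5mC all have a total difference between 3.80 and 15.2 points, and the lowest belongs to tiles within 5 points, many of them unmethylated.

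Regions of 10 kb with at least 5 tiles were used to name local differences. Of 12310 such regions, 413 (3.35%) were higher by at least 25 points and 78 (0.634%) lower by at least 10 points. The 8 of largest increase were higher by 42.3 to 57.2 points, and total methylation was higher in 8 of 8, by 6.003 to 34.2 points, beside 11058 of all 12310 regions (89.8%). Without the tile of largest increase in each, an alternative added after seeing the data, the 8 differences were 30.4 to 51.0 points. On chromosome 17 (21170001 to 21180000) 5mC was 25.9% in WT and 68.8% without p53, with 6 of 6 tiles higher, and the total was 36.5% and 70.8%. Among the 8 this region had the largest total difference, 34.2 points. In the second set its levels were 55.4% and 59.3%.

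On chromosome 11 (66620001 to 66630000) 5mC was 22.2% in WT and 71.2% without p53 and the total 38.8% and 64.3%. On chromosome 7 (12390001 to 12400000) 5mC was 44.4% and 90.1%, and the total 53.8% and 76.7%. The region of largest increase, on chromosome 7 (13750001 to 13760000), had 16.1% and 73.3% of 5mC, but a total of 51.6% and 58.8%, only 7.14 points apart. In p53-null cells its 5mC exceeded the total, which by definition includes 5mC. The same was the case in 6 of the 8 regions, beside 20.7% of all regions, and in 0 of them for WT, beside 16.9%. Choosing regions by their 5mC difference favours such an order.

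The 8 regions of largest decrease had differences of -26.4 to -17.5 points, and total methylation was also lower in 1 of 8, near the 10.17% of all regions in which it was lower. They rest more on single tiles: without the tile of largest decrease in each, the differences were -16.7 to -5.44 points. On chromosome 14 (65240001 to 65250000) 5mC was 35.0% in WT and 8.62% without p53, with 0 of 6 tiles higher, while the total was 22.2% and 39.7%, higher by 17.4 points. The region whose total was also lower lay on chromosome 11 (10060001 to 10070000), with 5mC of 26.3% and 5.89% and a total of 17.5% and 16.0%. Here WT 5mC exceeded the WT total in 7 of 8 regions, beside 16.9% of all regions. The p53-null 5mC exceeded its total in 0 of 8, beside 20.7%. This order is the opposite of that in the increases, and choosing regions by their 5mC difference favours it in both directions.

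Of the 7184 single tiles higher by at least 50 points, 133 had at least 2 other tiles within 1000 bp, all of them higher by at least 25 points. None of the 714 tiles lower by 50 points met that rule in the other direction. Only 2.37% of all tiles were lower by at least 25 points, beside 18.0% higher, so the rule was harder to meet for decreases. Total methylation of the 133 was higher in 118 and lower in 15, with a mean difference of 14.1 points beside 63.0 points in 5mC. Of all tiles, the total was higher in 76.1% and lower in 21.1%. Of the 6 named by the rule, a tile on chromosome 8 (127424001 to 127424200) had the largest total difference, with 5mC of 9.09% in WT and 100% without p53 and a total of 36.4% and 90%. On chromosome 3 (30929001 to 30929200) 5mC was 4.35% and 94.1% and the total 11.8% and 62.5%. On chromosome 15 (86758801 to 86759000) 5mC was 5.71% and 100% and the total 40% and 75.8%. In all 6 the p53-null total exceeded the WT total, by 13.5 to 53.6 points. In all 6 the p53-null 5mC also exceeded the p53-null total, which by definition includes it. Choosing tiles by their 5mC difference favours this, and its share over all tiles was not computed. The size of these 5mC differences is not borne out by the total.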

How the data were processed

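Genomic DNA was cut with MspI for both assays, per the labels' protocols. The submitters' processing notes name methylKit, BSMAP, Trim Galore and the mm9 build. Roles, versions and filters were not given in the sources used here. Tile values are fractions that the authors deposited, 1 pooled value per genotype and modification for each 200 bp tile, per the file headers; they were multiplied to percent. The CpG table holds whole percent values deposited by the authors for 330387 CpGs, each assigned to its tile by position. The deposited q-values, and 6 columns of values whose headings give no tissue or have an undefined suffix, were not used, nor was p53-null total methylation of the second set. Another 2 columns with that suffix appear only under the other observations.

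Differences are p53-null minus WT, each tile counting once. Without values per library or counts, the test planned for such values (limma) was not run, no confidence interval or floor is given, and counts past 10, 25 or 50 points stand in for calls. Chromosomes with fewer than 1000 tiles (1, with 22 tiles) are not listed. Named regions are the 8 windows of 10 kb (at least 5 tiles) of largest difference each way, the 4 windows of 1 Mb (at least 20 tiles) each way, and up to 6 tiles each way with at least 2 others within 1000 bp differing the same way by at least 25 points, 1 per 10 kb. The members, rules and lists were chosen with earlier results of these data known. Because the reference tables given are of GRCm38.p6 and not mm9, no gene was assigned, the gene lists were not used and no sequence is printed. Coordinates are mm9 and count from 1. The summaries were checked on simulated data: of 200 tiles set to a change of 60 points among 214665 simulated tiles, 200 were counted at 50 points. The planted values held no noise, so this checks the counting only and not how well real differences are found. Python 3.11.15, numpy 2.4.6, pandas 2.3.3 and matplotlib 3.10.9 were used.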

Additional observations from a re-analysis of the deposited data

Results flagged for a closer look

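The genotype difference in 5mC had opposite signs in naive cells and in the second set of columns, taken as RA-treated. Over the 214665 tiles with values in both, p53-null minus WT was 9.28 points in naive cells and -3.95 points in the other columns, so that these differences lay -13.2 points apart (second minus first). It is listed because the sign differs, and the difference was not tested, since each group has 1 pooled value.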

How the results depend on the processing

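With no replicates, a mean counts as moved here when it shifts by more than 1 SD over chromosomes (0.518 points for all tiles), and a count when it shifts by more than 1.5 times. The naive 5mC difference of 9.51 points stayed positive under each alternative run. It was 9.47 on autosomes, 9.28 in tiles of both sets, 9.56 with each chromosome counting once and 9.48 without the X stretch. It was 12.6 in tiles at 20% or more in the second set and 10.7 without tiles at 0% or 100%. It was 10.9 as a mean over 94495 windows of 10 kb, a wider set than the 12310 with at least 5 tiles. The difference was 5.55 in tiles with a CpG of the CpG table, 5.12 as a median and 8.65 in total methylation. The 44380 higher and 5831 lower tiles at 25 points became 101209 and 19978 at 10 points, 7184 and 714 at 50 points, and 8696 and 649 in tiles with a CpG of the CpG table. They were 27247 and 502 where the total also moved that way by at least 10 points, and 22307 and 780 in total methylation alone. The largest increase of a 10 kb region, 57.2 points, was 40.9 with at least 8 tiles, 51.0 without its most extreme tile and 7.14 in the total of the same region. The largest decrease, -26.4 points, was -16.0 with at least 8 tiles, -16.7 without its most extreme tile, and reversed to 17.4 in the total of the same region. With classes from WT alone, the class at 5% to 20% moved from 2.35 to 2.99 points. The cause of these shifts was not tested. The alternatives with total methylation, without the X stretch and without an extreme tile were chosen after seeing the data. Leaving out libraries was not run, since no values per library were used. No paired analysis was possible because the authors pooled the libraries of each group and no column carries a replicate number. Depth limits what single tiles can show, and it is unknown.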

Other observations

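Naive columns of the CpG table with the suffix Hx, left undefined in the labels and headers, averaged 5.03% (WT) and 7.15% (p53-null) over 330387 CpGs, 2.12 points apart. Averaged within 102872 tiles that also have 5mC, they were 11.3% and 16.1%, beside a tile 5mC of 13.1% and 18.7%. Across those tiles they correlated with tile 5mC of the same genotype at r = 0.893 for WT and 0.917 for p53-null cells.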
